A study of Homo sapiens with 8 samples.

Results

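The genes described here are the snoRNA host genes, long noncoding RNA genes whose introns carry small nucleolar RNAs (snoRNAs). They were taken from the count files by name, as every row called SNHG followed by digits, together with GAS5, ZFAS1 and EPB41L4A-AS1. The rule found 17 of 56832 gene rows, and all 17 passed the filter on low counts that left 14611 genes to test. Expression was measured by total RNA sequencing after ribosomal RNA depletion in Nthy-ORI, a human cell line that derives from non-cancerous thyroid epithelium. Cultures were first held for 24 h in medium stripped of hormone. The 4 groups were 10 nM T3 for 6 h, NaOH vehicle for 6 h, 10 nM T3 for 24 h and NaOH vehicle for 24 h, with 2 libraries in each. T3 (triiodothyronine) is the active thyroid hormone, and the libraries address which transcripts change with it at each time.

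Libraries held 2517983 to 8201606 reads counted in genes, and nothing in the labels says that replicates were separate cultures, so p-values measure only the spread between libraries. The vehicle pair at 24 h differed most from each other, with a chi-square of 28.8 per degree of freedom over genes, against 2.58 to 7.23 in the other pairs. KLF9, an established T3 target, had 13.3 and 14.0 CPM with T3 at 6 h, against 0.901 and 0.815 CPM with vehicle, where CPM is the count scaled to a total of 1000000 counted reads, after TMM scaling. At 24 h KLF9 had 2.78 and 3.34 CPM in libraries labelled T3, against 20.7 and 31.3 CPM in those labelled vehicle, and HR, another known target, had 0.309 and 0.115 CPM against 4.28 and 3.87 CPM. Both targets thus went against the 24 h labels, and directions at 24 h are given for the libraries as labelled. Of the thyroid markers TG, TSHR, NKX2-1 and DUOX2 were at 0 or under 1 CPM in every library, while PAX8, FOXE1 and HHEX were present. Some markers also separated the times. The epithelial list (EPCAM, CDH1 and 4 keratins) summed to 403 to 573 CPM at 24 h, against 1060 to 1230 CPM at 6 h. The thyroid list summed to 148 to 192 CPM at 24 h, against 26.8 to 43.2 CPM at 6 h. Among fibroblast markers COL1A1 had 606 to 1220 CPM at 24 h, against 97.7 to 189 CPM at 6 h. The whole fibroblast list did not separate the times, with 1700 to 2170 CPM at 24 h, against 1690 to 2140 CPM at 6 h. Of its 4 tested genes 2 were lower at 24 h in each kind of culture, with 2 higher in T3 cultures and 1 in vehicle cultures. The fibroblast markers COL3A1, PDGFRA and THY1 were at or near 0 throughout, and the endothelial, immune and C cell lists each summed to at most 2.85 CPM in a library. Reads in genes were 19.5% to 24.4% of a table at 24 h, against 12.9% to 17.1% at 6 h, and reads without a unique alignment 47.6% to 57.1% at 24 h, against 61.2% to 67.4% at 6 h. Whether the marker or alignment differences play a part in the changes with time was not tested.

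Host genes of this kind are transcribed by RNA polymerase II and spliced, and the snoRNAs are trimmed out of the excised introns. Box C/D snoRNAs guide 2′-O-methylation and box H/ACA snoRNAs guide pseudouridylation of ribosomal and spliceosomal RNA, while scaRNAs do so in Cajal bodies. Many of the spliced exons have little coding capacity. In human cells several hosts, GAS5 among them, begin with a 5′ terminal oligopyrimidine (TOP) tract like that of ribosomal protein mRNAs, and their spliced RNA is removed by nonsense-mediated decay when it is translated.

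The starts of 8 hosts are shown because a pyrimidine run at the start is what the TOP class shares, and because these hosts moved in different ways. Each line gives 40 bases of RefSeq's GRCh38.p14 sequence, 15 before and 25 from the annotated start, 5′ to 3′ on the transcribed strand. Capitals mark CTTT wherever it fell within 10 bases before and 15 bases from the start.
ZFAS1, chr20:49278627-49278666, plus strand: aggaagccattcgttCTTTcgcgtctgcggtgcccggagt
SNHG5, chr6:85678709-85678748, minus strand: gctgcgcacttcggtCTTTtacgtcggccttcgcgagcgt
SNHG16, chr17:76557749-76557788, plus strand: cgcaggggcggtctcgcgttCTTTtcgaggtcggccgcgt
SNHG12, chr1:28581849-28581888, minus strand: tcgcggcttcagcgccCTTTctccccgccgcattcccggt
SNHG4, chr5:139274086-139274125, plus strand: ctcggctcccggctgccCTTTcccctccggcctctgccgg
SNHG8, chr4:118278747-118278786, plus strand: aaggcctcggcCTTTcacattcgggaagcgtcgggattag
SNHG1, chr11:62855861-62855900, minus strand: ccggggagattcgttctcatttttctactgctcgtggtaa
SNHG7, chr9:136728160-136728199, minus strand: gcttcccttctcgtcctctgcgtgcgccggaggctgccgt

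Start windows were found for 14 of the 17 hosts, and 6 of the 14 held CTTT on the transcribed strand, namely SNHG4, SNHG5, SNHG8, SNHG12, SNHG16 and ZFAS1. Across all 35116 RefSeq start windows of the same length 10.7% held it. On the other strand none of the 14 held it, against 8.19% of all windows. The window depends on the start that RefSeq gives: for GAS5, a known TOP gene, that start lies upstream of the one in GENCODE.

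By RefSeq positions, 7 hosts held mainly box C/D snoRNAs and 9 mainly box H/ACA snoRNAs, and SNHG10 held a scaRNA. SNHG14, the long host at the Prader-Willi locus on chromosome 15, held 83 box C/D snoRNAs, GAS5 held 10 with 1 H/ACA snoRNA, and SNHG1 held 8. The remaining hosts held 1 to 4 snoRNAs each. Below are 5 of these snoRNAs, chosen because their hosts carry the results, with capitals on the C box (TGATGA) and D box (CTGA) of the C/D class and on the ACA box of the H/ACA class. Coordinates are those of GENCODE 29 on GRCh38.
SNORD12B in ZFAS1, chr20:49280319-49280409, plus strand: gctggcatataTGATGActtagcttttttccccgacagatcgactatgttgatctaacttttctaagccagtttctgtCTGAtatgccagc
SNORD12C in ZFAS1, chr20:49278940-49279028, plus strand: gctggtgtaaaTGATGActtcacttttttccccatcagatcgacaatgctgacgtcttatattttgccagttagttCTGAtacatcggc
SNORD27 in SNHG1, chr11:62855012-62855083, minus strand: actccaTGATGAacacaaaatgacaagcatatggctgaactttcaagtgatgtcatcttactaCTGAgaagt
SNORA73B in SNHG3, chr1:28508559-28508762, plus strand: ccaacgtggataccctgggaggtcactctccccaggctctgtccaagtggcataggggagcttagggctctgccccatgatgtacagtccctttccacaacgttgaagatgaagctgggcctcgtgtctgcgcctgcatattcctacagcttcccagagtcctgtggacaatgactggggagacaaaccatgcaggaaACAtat
SNORA17A in SNHG7, chr9:136726747-136726879, minus strand: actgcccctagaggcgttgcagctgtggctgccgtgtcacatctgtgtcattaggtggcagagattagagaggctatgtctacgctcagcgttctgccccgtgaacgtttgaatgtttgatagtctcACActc

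Together the 17 hosts took 0.209% and 0.212% of the gene counts with T3 at 6 h, against 0.237% and 0.228% with vehicle. At 24 h they took 0.162% and 0.172% in libraries labelled T3, against 0.179% and 0.134% in those labelled vehicle. Per kilobase of annotated exon, the highest levels with vehicle at 6 h were those of SNHG8 (159 CPM per kb), GAS5 (136), SNHG6 (125) and SNHG1 (80.8). With vehicle at 24 h the order was led by SNHG1 (79.1 CPM per kb), ZFAS1 (76.6) and GAS5 (59.2). SNHG14, whose annotated exons are the longest of the 17, was lowest at 6 h in both treatments, with 2.22 CPM per kb with T3 and 1.95 with vehicle. At 24 h SNHG9 was lowest, with 0.561 CPM per kb in libraries labelled T3 and 0.949 in those labelled vehicle.

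**Figure D1:**
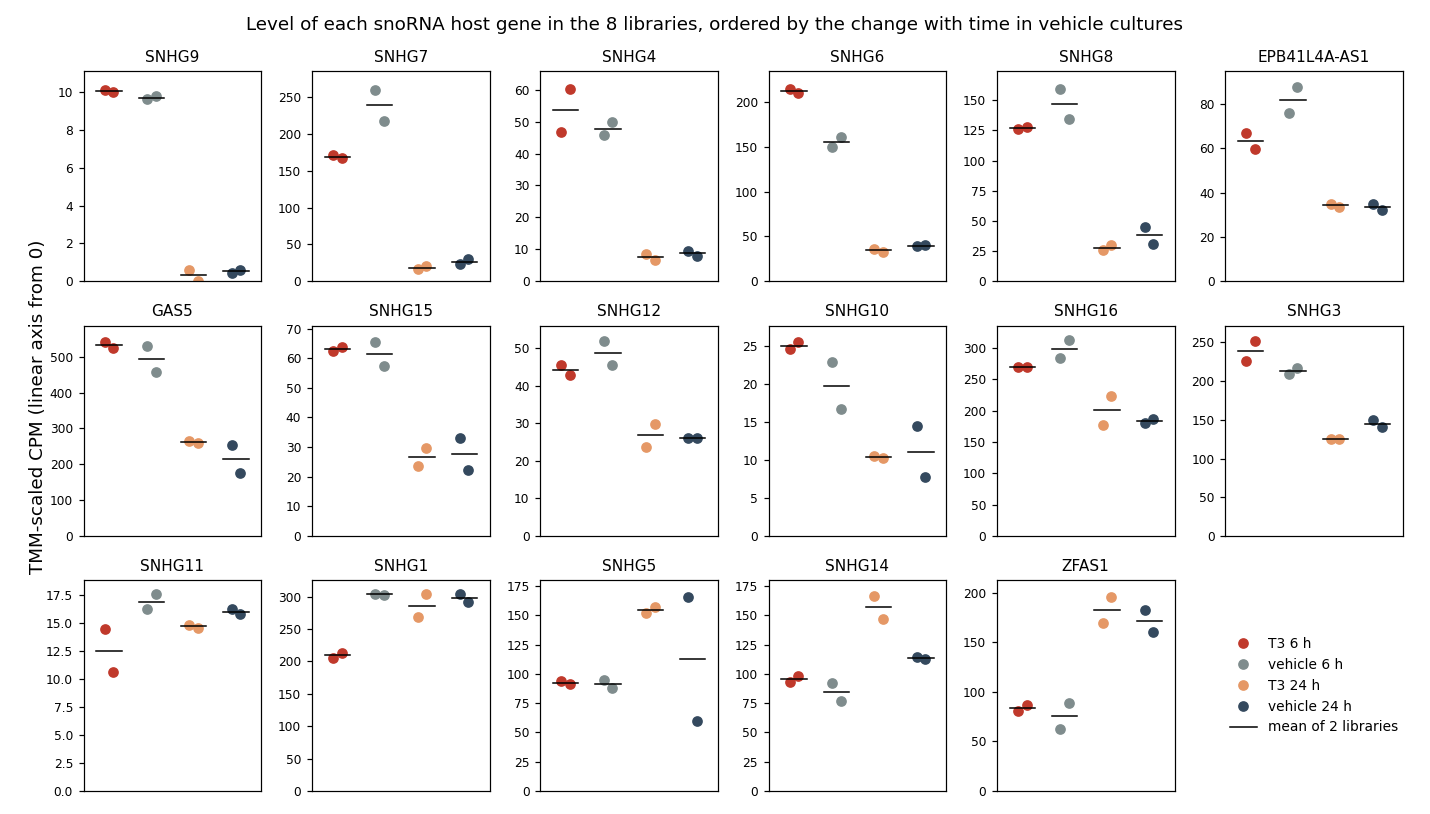
TMM-scaled CPM of each host in the 8 libraries on linear axes from 0, 1 panel per gene and 2 points per group, with a line at the group mean. Panels run from the largest fall with time in vehicle cultures (SNHG9, top left) to the largest rise (ZFAS1), and the 24 h points lie well below the 6 h points along the whole top row.

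With T3 at 6 h, 1 of the 17 hosts was higher and 2 were lower. Among all tested genes 3.78% were called higher (553) and 3.86% lower (564), so that 1 and 2 of 17 (5.88% and 11.8%) are small numbers near that background. With library totals in place of TMM scaling the split over all genes was 248 higher and 703 lower, and the hosts had 0 higher and 2 lower. The median log2 fold change of the hosts was 0.04, against -0.02 over all genes. The calls were SNHG6, up, and SNHG1 and SNHG7, down.

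SNHG1, on chromosome 11 (62851988 to 62855914, minus strand, GRCh38), holds the SNORD22 and SNORD25 to SNORD31 snoRNAs. It had 206 and 213 CPM with T3 at 6 h, against 305 and 302 CPM with vehicle. The T3 libraries both lay below the vehicle libraries, and each pair was close together. SNHG1 fell by 0.53 on the log2 scale (SE 0.12, adjusted p = 0.0111, edgeR's quasi-likelihood test with Benjamini-Hochberg adjustment).

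SNHG7, on chromosome 9 (136721366 to 136728184, minus strand), is the host of SNORA17A and SNORA17B. It had 171 and 167 CPM with T3 at 6 h, against 260 and 218 CPM with vehicle. The vehicle libraries were further apart than the T3 libraries, but the groups did not overlap. SNHG7 fell by 0.50 on the log2 scale (SE 0.14, adjusted p = 0.0423 by edgeR's quasi-likelihood test). Its exons overlap those of FAM69B on the other strand, which had 0.361 and 0.601 CPM with T3 at 6 h, against 3.30 and 3.67 CPM with vehicle and so was far below the SNHG7 values.

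SNHG6, on chromosome 8 (66921684 to 66926398, minus strand), holds a single box C/D snoRNA. It had 215 and 210 CPM with T3 at 6 h, against 150 and 161 CPM with vehicle. Both T3 libraries were above both vehicle libraries. The log2 fold change was 0.45 (SE 0.12, adjusted p = 0.0376 by edgeR's quasi-likelihood test). Each of the 3 calls was lost when any 1 of the 4 libraries at 6 h was left out, where the remaining library of that group is assumed to vary like the other groups. SNHG1 was called under the other 11 of 15 alternative settings, and its log2 fold change lay between -0.72 and -0.47 in all 15. The SNHG6 and SNHG7 calls were also lost with DESeq2 and with GC content and length corrected, where the log2 fold changes were 0.11 for SNHG6 and -0.23 for SNHG7.

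The other 14 hosts did not pass the threshold at 6 h, and their log2 fold changes lay between -0.46 (SNHG11) and 0.33 (SNHG10). EPB41L4A-AS1, host of SNORA13, came nearest, with 67.1 and 59.7 CPM with T3 against 76.0 and 87.6 CPM with vehicle (log2 fold change -0.37, SE 0.16, adjusted p = 0.168 by edgeR's quasi-likelihood test). GAS5, first named as a transcript of growth-arrested cells and known to bind the glucocorticoid receptor, had 541 and 525 CPM with T3 at 6 h, against 531 and 457 CPM with vehicle. The GAS5 groups overlapped, and the 95% interval of its log2 fold change ran from -0.20 to 0.41. For SNHG5, the interval was much wider, from -1.29 to 1.32, although its 6 h values all lay between 88.0 and 94.6 CPM. The spread of SNHG5 at 24 h is given below.

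**Figure D2:**
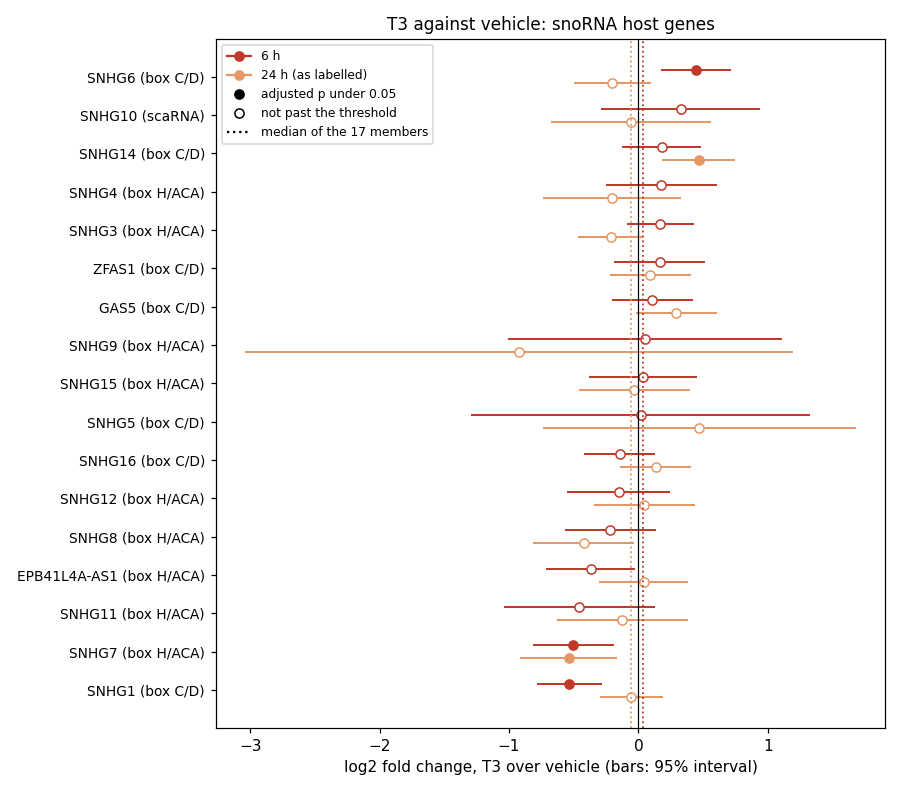
Log2 fold change of each host, T3 over vehicle, at 6 h and at 24 h as labelled, with 95% intervals as bars and filled points where the adjusted p was under 0.05. SNHG7 is the host with filled points at both times, and both of its points lie near -0.5, while most other intervals cross 0.

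At 24 h, 1 host was higher and 1 lower in the libraries labelled T3, which is 5.88% each, against 5.58% of all genes called higher and 7.76% called lower. The median of the hosts was -0.05 and that of all genes -0.01. SNHG14 had 167 and 147 CPM in libraries labelled T3, against 115 and 113 CPM in those labelled vehicle. Both libraries labelled T3 were higher, and the log2 fold change was 0.46 (SE 0.13, adjusted p = 0.0259 by edgeR's quasi-likelihood test). SNHG7 had 16.5 and 20.2 CPM in libraries labelled T3, against 23.0 and 30.1 CPM in those labelled vehicle. Its groups did not overlap, and it fell by 0.54 on the log2 scale (SE 0.17, adjusted p = 0.0491 by edgeR's quasi-likelihood test). The SNHG7 call was lost under 11 of 15 alternative settings, and with GC content and length corrected the log2 fold change was -0.04. The SNHG14 call was lost under 7 of 15, including the same correction (0.27), under which 59 genes were higher and 72 lower among 12577.

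Of the 15 hosts that were not called at 24 h, SNHG8, the host of SNORA24, had 25.5 and 30.4 CPM in libraries labelled T3, against 45.2 and 31.0 CPM in those labelled vehicle (log2 fold change -0.42, adjusted p = 0.129 by edgeR's quasi-likelihood test). GAS5 had 265 and 261 CPM against 254 and 176 CPM in those labelled vehicle (log2 fold change 0.29, adjusted p = 0.192 by the same edgeR test). SNHG5, host of SNORD50A and SNORD50B, had 152 and 157 CPM in libraries labelled T3, against 166 and 59.9 CPM in those labelled vehicle. The second vehicle library alone was low, at 402 reads for SNHG5, against 737 reads in the first and shallower one. Leaving out the first vehicle library brought GAS5 and SNHG5 among the genes called higher.

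The response at 24 h minus the response at 6 h was called for 0 of the 17 hosts by edgeR's quasi-likelihood test, with 3 at an unadjusted p under 0.05, and for 0 by DESeq2. Among all genes 0.849% were called higher (124) and 0.992% lower (145), and with library totals 141 were higher and 80 lower. The 3 hosts were SNHG1 (0.48, SE 0.16, adjusted p = 0.136), SNHG3 (-0.38, SE 0.17, adjusted p = 0.263) and SNHG6 (-0.65, SE 0.18, adjusted p = 0.0817), all on the log2 scale from edgeR's quasi-likelihood test. For SNHG7, which fell at both times as labelled, the difference was -0.04 with a 95% interval from -0.51 to 0.43. With the sign of its 24 h response turned, since KLF9 and HR went against those labels, that response would be 0.54 and the difference 1.04 (0.57 to 1.51).

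More hosts passed the threshold between the times than between treatments. In T3 cultures 12 of 17 were lower at 24 h than at 6 h and 3 were higher. In vehicle cultures 12 were lower and 2 higher. The 12 are 70.6% of the hosts, against 35.2% of all genes called lower in T3 cultures and 32.6% in vehicle cultures. Higher calls covered 17.6% of hosts in T3 cultures and 11.8% in vehicle cultures, against 35.1% and 31.9% of all genes. The median log2 fold change of the hosts was -0.94 in T3 cultures and -0.90 in vehicle cultures, against 0.02 and 0.03 over all genes. The libraries at the 2 times differed by time and by whatever else set the cultures apart, which cannot be told apart, and in bulk RNA a smaller number of cells with a transcript and less of it per cell cannot be told apart either. The contrasts with T3 and those with time share libraries, so their values stand side by side and are not independent. In every contrast with time, here and below, T3 and vehicle cultures at 24 h are the libraries as labelled. Were the 24 h labels exchanged, each such contrast would set T3 at 1 time against vehicle at the other.

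**Figure D3:**
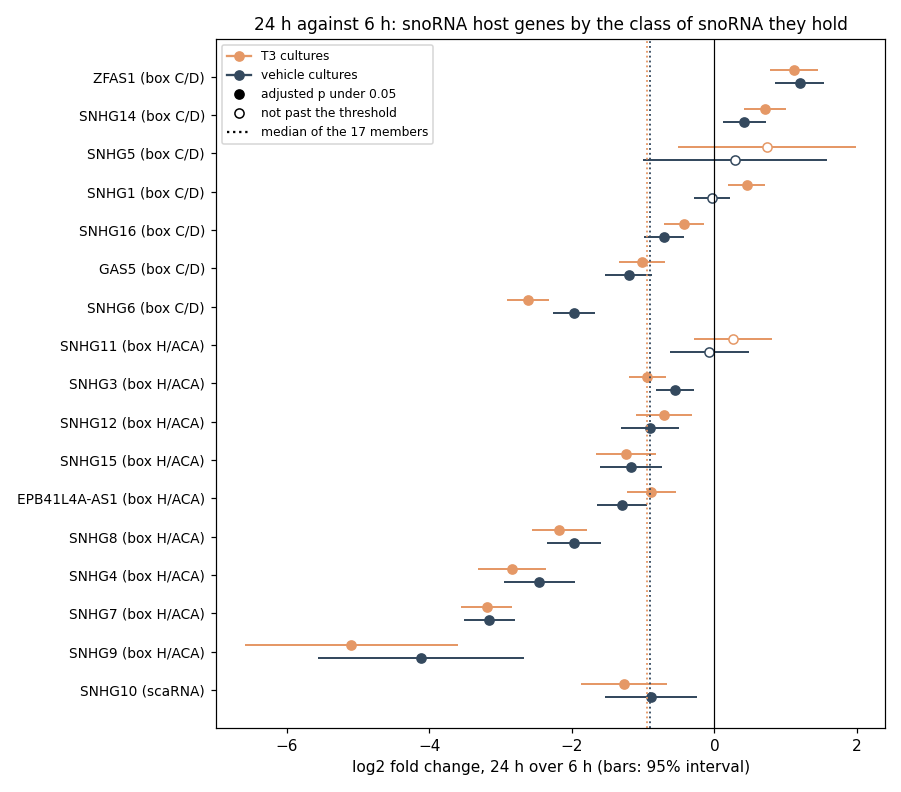
Log2 fold change of each host, 24 h over 6 h, in T3 and in vehicle cultures, grouped by the class of snoRNA that it holds, with 95% intervals as bars and filled points where the adjusted p was under 0.05. The box H/ACA hosts lie left of 0 except SNHG11, whereas ZFAS1, SNHG5 and SNHG1 in the box C/D group lie near or right of it, as does SNHG14 before GC content and length are corrected.

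Most hosts of box H/ACA snoRNAs fell with time. Of these 9 hosts 8 were lower and 0 higher at 24 h in both T3 and vehicle cultures, with a median log2 fold change of -1.24 in T3 cultures and -1.29 in vehicle cultures. Over all genes 31.9% to 35.2% were called in each direction. Of the 7 box C/D hosts 3 were lower in each, with 3 higher in T3 cultures and 2 in vehicle cultures, and medians of 0.45 and -0.03. SNHG14, among the higher hosts, turned sign with GC content and length corrected. This split was made after the values had been seen and was not tested.

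SNHG9 (chromosome 16, 1964959 to 1965509, plus strand) is a short gene around SNORA78, and its annotated exons, merged over transcripts, form 1 block of 551 bases. It had 0.618 and 0 CPM with T3 at 24 h, against 10.1 and 10.0 CPM with T3 at 6 h. In vehicle cultures it had 0.450 and 0.596 CPM at 24 h, against 9.61 and 9.78 CPM at 6 h. All 24 h libraries were near the floor of 3 counts, so the ratio of summed counts is given with its exact 95% counting interval, which covers counting error only: 0.0263 (0.00698 to 0.0700) in T3 cultures, from 4 reads against 78, and 0.0555 (0.0196 to 0.129) in vehicle cultures, from 6 reads against 56. The fitted log2 fold changes of SNHG9 were -5.09 in T3 cultures and -4.12 in vehicle cultures, and -2.61 and -1.87 with GC content and length corrected.

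SNHG7 had 16.5 and 20.2 CPM with T3 at 24 h, against 171 and 167 CPM at 6 h, and 23.0 and 30.1 CPM with vehicle at 24 h, against 260 and 218 CPM at 6 h. The log2 fold changes with time were -3.19 in T3 cultures and -3.16 in vehicle cultures, the lowest among the hosts after those of SNHG9. With GC content and length corrected they were -2.10 and -2.28, and in that setting SNHG4 had the lowest values (-3.03 and -2.66). Every 24 h library was far below every 6 h library (adjusted p = 2.48e-11 and 4.62e-11 by edgeR's quasi-likelihood test).

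SNHG4, the host of SNORA74A and SNORA74D, had 8.49 and 6.68 CPM with T3 at 24 h, against 46.9 and 60.1 CPM at 6 h, and 9.45 and 8.04 CPM with vehicle at 24 h, against 45.9 and 49.7 CPM at 6 h. SNHG8 had 25.5 and 30.4 CPM with T3 at 24 h, against 126 and 128 CPM at 6 h, and 45.2 and 31.0 CPM with vehicle at 24 h, against 159 and 135 CPM at 6 h. Neither gene overlapped between times. The log2 fold changes were -2.84 and -2.46 for SNHG4 and -2.17 and -1.97 for SNHG8, in T3 and vehicle cultures, each past the threshold by edgeR's quasi-likelihood test.

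The other H/ACA hosts changed by less. EPB41L4A-AS1 changed by -0.88 and -1.29, SNHG15 by -1.24 and -1.17, SNHG12 by -0.71 and -0.90, and SNHG3 by -0.94 and -0.56 in T3 and vehicle cultures on the log2 scale, with adjusted p-values up to 0.00212 by edgeR's quasi-likelihood test. SNHG10, the host of the scaRNA SCARNA13, changed by -1.27 and -0.89. In vehicle cultures SNHG10 lost its call without the first 6 h vehicle library or without the second 24 h vehicle library. SNHG11, the least abundant H/ACA host per kilobase at 6 h, had 14.8 and 14.5 CPM with T3 at 24 h, against 14.4 and 10.6 CPM at 6 h, and 16.2 and 15.8 CPM with vehicle at 24 h, against 16.2 and 17.5 CPM at 6 h. It did not pass the threshold in either contrast (log2 fold changes 0.26 and -0.07), but with GC content and length corrected it was called higher in both (1.25 and 0.69).

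Among the box C/D hosts, SNHG6 fell the most. It had 36.0 and 33.1 CPM with T3 at 24 h, against 215 and 210 CPM at 6 h, and 38.9 and 40.2 CPM with vehicle at 24 h, against 150 and 161 CPM at 6 h. No 24 h value came near a 6 h value. SNHG6 changed by -2.62 in T3 cultures and -1.97 in vehicle cultures (adjusted p = 1.99e-11 and 1.46e-09 by edgeR's quasi-likelihood test). GAS5 changed by -1.02 and -1.20 and SNHG16, host of SNORD1A to SNORD1C, by -0.43 and -0.70, all past the threshold.

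ZFAS1, on chromosome 20 (49278178 to 49295738, plus strand), holds SNORD12, SNORD12B and SNORD12C and was first described as antisense to the start of ZNFX1. It had 169 and 196 CPM with T3 at 24 h, against 81.1 and 86.5 CPM at 6 h. In vehicle cultures it had 183 and 161 CPM at 24 h, against 62.7 and 88.4 CPM at 6 h. All 24 h libraries were higher than all 6 h libraries, by a log2 fold change of 1.12 (SE 0.15, adjusted p = 4.62e-06) in T3 cultures and 1.19 (SE 0.16, adjusted p = 4.43e-06) in vehicle cultures by edgeR's quasi-likelihood test. ZFAS1 was the only host that more than doubled with time in both kinds of culture, and it was called higher under all 15 alternative settings.

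SNHG14 had 167 and 147 CPM with T3 at 24 h, against 93.4 and 98.6 CPM at 6 h, and 115 and 113 CPM with vehicle at 24 h, against 92.2 and 77.0 CPM at 6 h. The times did not overlap, with log2 fold changes of 0.71 and 0.42 (adjusted p = 0.000138 and 0.0129 by edgeR's quasi-likelihood test). With GC content and length corrected the sign turned, to -0.18 in T3 cultures and -0.29 in vehicle cultures, so no direction can be given for SNHG14 that holds under both scalings. SNHG1 had 269 and 303 CPM with T3 at 24 h, against 206 and 213 CPM at 6 h, but 303 and 291 CPM with vehicle at 24 h, against 305 and 302 CPM at 6 h. The 6 h T3 pair alone was low, and the log2 fold change with time was 0.45 (adjusted p = 0.00197 by edgeR's quasi-likelihood test) in T3 cultures and -0.03 in vehicle cultures. After that correction SNHG1 was not called in T3 cultures (0.15) and was called lower in vehicle cultures (-0.35). SNHG5 changed by 0.74 and 0.28 and was called in neither contrast. In vehicle cultures SNHG5 was called higher with time without the second 24 h vehicle library (the low one) and lower without the first. In T3 cultures it was called higher without either of them and with only the 4 libraries compared.

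The presence of CTTT at the start did not sort the hosts by direction. Of the 6 hosts with it, SNHG4, SNHG8, SNHG12 and SNHG16 fell with time, ZFAS1 rose and SNHG5 was not called.

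Most snoRNA rows inside the hosts had no read. The files listed 446 snoRNA and scaRNA rows, of which 213 had any read and 55 were tested. GENCODE 29 placed 117 rows inside the hosts, none of them inside GAS5, and of these 33 had a read and 9 were tested. The 117 include a few rows with RF names that are not among the 446. Of the 33 rows that lie wholly in annotated host exons 1 had a read, a single one over all libraries, against 31 of 81 rows in introns, which held all 9 tested rows, and 1 of 3 rows partly in exons. A read in an annotated host exon fits both host and snoRNA, so the missing reads do not show that these snoRNAs were absent. At 24 h against 6 h, 27 of the 55 were lower and 2 higher in T3 cultures, and 29 lower and 2 higher in vehicle cultures, by edgeR's quasi-likelihood test. Among all genes 31.9% to 35.2% were called in each direction. With GC content and length corrected 7 were lower and 3 higher in T3 cultures, and 8 lower and 6 higher in vehicle cultures. That correction was fitted on the tested genes with these short rows among them. It can therefore take out a change that short genes share, and how far it did so was not tested. The summed snoRNA rows came to 804 and 787 CPM with T3 at 24 h, against 2350 and 3000 CPM at 6 h, and to 1530 and 749 CPM with vehicle at 24 h, against 3100 and 3150 CPM at 6 h.

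SNORA73B, shown above, is an intronic snoRNA of SNHG3 and was the best covered of the rows that GENCODE placed inside a host. It had 59.3 and 51.0 CPM with T3 at 24 h, against 199 and 287 CPM at 6 h, and 109 and 53.0 CPM with vehicle at 24 h, against 347 and 371 CPM at 6 h. The times did not overlap, and SNORA73B changed by -2.15 and -2.16 on the log2 scale in T3 and vehicle cultures (adjusted p = 0.00175 and 0.00195 by edgeR's quasi-likelihood test), while its host changed by -0.94 and -0.56. After correction for GC content and length SNORA73B changed by -0.33 and -0.35. The difference between host and snoRNA was not tested. SNHG3 also shares exon bases with RCC1 on the same strand.

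SCARNA13 in SNHG10 changed by -1.65 and -1.29, against -1.27 and -0.89 for its host, in T3 and vehicle cultures. SNORA74D in SNHG4 changed by -2.91 and -2.56, against -2.84 and -2.46 for its host. With GC content and length corrected the values were -0.53 and -0.13 for SCARNA13 and -1.22 and -0.66 for SNORA74D. SNORA74A in SNHG4 had 0 and 0 reads with T3 at 24 h, against 10 and 38 reads at 6 h, and 5 and 0 reads with vehicle at 24 h, against 33 and 16 reads at 6 h. At the depths of the 24 h T3 libraries 0 reads allow up to 0.463 and 0.346 CPM. In ZFAS1, whose level rose, SNORD12C changed by 0.11 and -0.81 and SNORD12B by -0.41 and 0.67, with SEs of 0.56 to 0.74, and neither passed the threshold. The same held for SNORD116-14 and SNORD116-19 in SNHG14 and for SNORD99 in SNHG12.

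**Figure D4:**
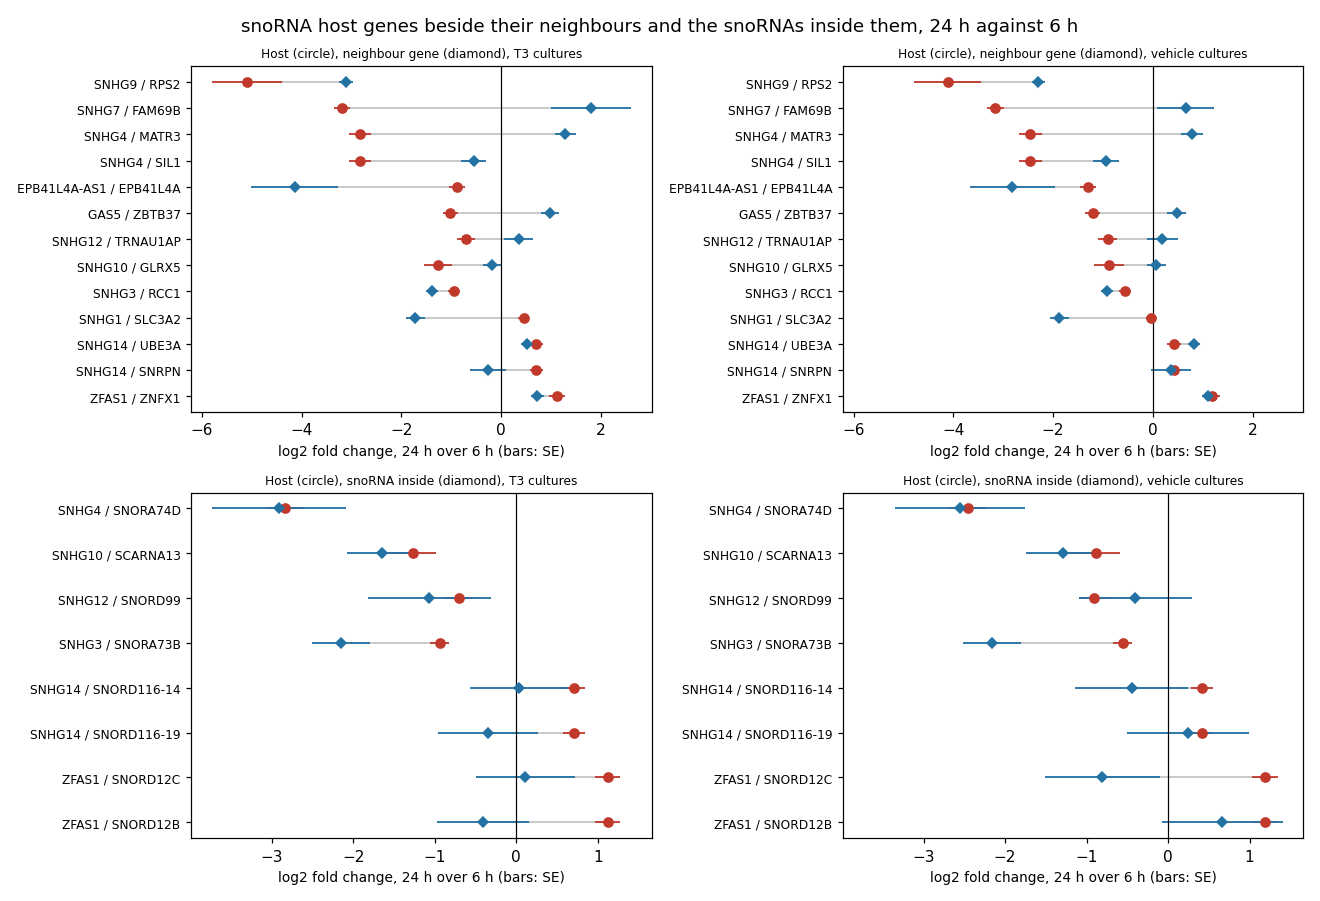
Log2 fold change, 24 h over 6 h, of hosts (circles) beside the 13 tested genes that neighbour or overlap them (diamonds, top) and beside 8 snoRNA rows inside them (diamonds, bottom), in T3 cultures (left) and vehicle cultures (right), with SEs as bars. ZFAS1 and ZNFX1 lie together right of 0 and SNHG9 and RPS2 far left of it, while SNHG4 and MATR3 lie on opposite sides.

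By GENCODE positions, which also give the distances between starts below, several hosts start close to a protein-coding gene on the other strand or share exon bases with one. Among 16 such neighbours in the files 13 were tested. Of these 4 were higher and 4 lower at 24 h in T3 cultures, and 4 higher and 5 lower in vehicle cultures. These are small numbers near the 31.9% to 35.2% of all genes called in each direction. RPS2, whose start lies 99 bases from that of SNHG9, encodes a ribosomal protein and changed by -3.11 and -2.30 on the log2 scale in T3 and vehicle cultures. ZNFX1, whose start is 248 bases from that of ZFAS1, changed by 0.73 and 1.11. UBE3A, which SNHG14 is known to silence on the paternal chromosome in neurons, changed by 0.52 and 0.82, but by -0.46 and -0.10 with GC content and length corrected. Neighbours named with values in T3 and vehicle cultures passed the threshold of edgeR's quasi-likelihood test in both contrasts.

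Values of other neighbours are set beside those of their hosts, and differences between neighbour and host were not tested. SLC3A2, an amino acid transporter subunit that starts 188 bases from SNHG1, changed by -1.72 and -1.87, whereas SNHG1 changed by 0.45 and -0.03. ZBTB37, which starts 800 bases from GAS5, changed by 0.98 and 0.48, a direction that turned in vehicle cultures with GC content and length corrected (0.0031 and -0.40). MATR3, which shares exon bases with SNHG4 on the same strand, changed by 1.29 and 0.79. It has no corrected value, since its symbol was not matched to a single annotated gene. RCC1, which overlaps SNHG3, changed by -1.38 and -0.92, and SNHG3 was also lower in both contrasts. The setting for strand in the counting is not given in the sources used here, so reads of hosts and of genes across from them cannot be told apart where exons overlap.

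Host genes listed under another symbol fell with time as well. LRRC75A-AS1 (SNHG29) had 241 and 275 CPM with T3 at 24 h, against 1540 and 1420 CPM at 6 h, and 322 and 227 CPM with vehicle at 24 h, against 1420 and 1220 CPM at 6 h. C6orf48 (SNHG32) changed by -1.82 and -1.91 and LINC00338 (SNHG20) by -2.39 and -1.45 in T3 and vehicle cultures. All 3 were lower in both contrasts, where 35.2% of all genes were called lower in T3 cultures and 32.6% in vehicle cultures. With treatment 0 of the 3 passed the threshold at 6 h or 24 h by edgeR's quasi-likelihood test or by DESeq2, with 1 at an unadjusted p under 0.05 at 24 h. KIAA0114 (DANCR) changed by -3.30 and -2.65. MIR17HG, which hosts microRNAs in place of snoRNAs, had 40.1 and 44.1 CPM in 24 h libraries labelled T3, against 22.3 and 20.4 CPM in those labelled vehicle (log2 fold change 0.99, adjusted p = 0.00374 by edgeR's quasi-likelihood test). The MIR17HG call was lost with GC content and length corrected. MEG8 rose, with 12.5 to 15.7 CPM at 24 h, against 0 to 0.600 CPM at 6 h. KIAA0114, MIR17HG, MEG8 and MIR22HG were the 4 tested noncoding host genes outside the rule. Of these, 2 were higher and 1 lower with time in both kinds of culture by edgeR's quasi-likelihood test. Among all genes 35.1% were called higher in T3 cultures and 31.9% in vehicle cultures.

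Protein-coding hosts of snoRNAs were followed beside the noncoding ones. The 24 ribosomal protein genes that host snoRNAs were nearly all lower at 24 h: 23 in T3 cultures and 24 in vehicle cultures, with medians of -1.71 and -1.31, and none was higher. Over all genes 31.9% to 35.2% were called in each direction with time. RPL13 had a mean of 188 ± 7.38 CPM with T3 at 24 h, against 1460 ± 21.6 CPM at 6 h (SD, n = 2 each). Of the 32 other protein-coding hosts, a list that shares RPSA with the ribosomal one, 20 were lower and 3 higher in T3 cultures and 14 lower and 5 higher in vehicle cultures. With T3 at 6 h, 6 of these 32 were higher and 0 lower, where 3.78% of all genes were called higher. With library totals 3 of the 32 were higher, and 1 with GC content and length corrected. HSPA8, a chaperone gene that carries box C/D snoRNAs, averaged 4330 ± 336 CPM with T3, against 2450 ± 32.8 CPM with vehicle, and CCT6A, a chaperonin subunit, 619 ± 31.8 CPM against 417 ± 19.2 CPM (SD, n = 2 each). None of the 24 ribosomal protein hosts was called with T3 at 6 h, with 4 at an unadjusted p under 0.05 in edgeR's quasi-likelihood test, and 1 was called higher by DESeq2.

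Most core proteins of the snoRNA particles (snoRNPs) were lower at 24 h in T3 cultures. Of the 8 core proteins 7 were lower and 0 higher at 24 h in T3 cultures, and 4 lower and 1 higher in vehicle cultures. NOP56 and DKC1 are also in the list of other protein-coding hosts above, so both tallies hold them. With time 31.9% to 35.2% of all genes were called in each direction. With library totals 4 were lower in T3 cultures. FBL, the box C/D methyltransferase, had 76.6 and 83.0 CPM with T3 at 24 h, against 455 and 434 CPM at 6 h. NHP2, of the H/ACA particle, averaged 42.6 ± 3.92 CPM with T3 at 24 h, against 202 ± 18.5 CPM at 6 h (SD, n = 2 each). NOP58, a box C/D core protein, was the member called with T3 at 6 h (log2 fold change 0.57, adjusted p = 0.0297 by edgeR's quasi-likelihood test), and NOP56 was called lower at 24 h in libraries labelled T3 (-0.40, adjusted p = 0.0309 by the same edgeR test). Neither was called with GC content and length corrected. Of the 18 assembly and processing factors 3 were higher with T3 at 6 h, namely TAF9, DIS3 and RPAP3, and 0 lower, against 3.78% of all genes called higher. With DESeq2 2 were higher, and 0 with library totals or with GC content and length corrected. With time 4 were higher and 7 lower in T3 cultures, and 6 higher and 7 lower in vehicle cultures. With GC content and length corrected the split was 1 higher and 9 lower in T3 cultures, and 5 higher and 10 lower in vehicle cultures. RUVBL2, a helicase of the assembly complex, changed by -2.26 and -1.86 in T3 and vehicle cultures, whereas ZNHIT6, a box C/D assembly factor, changed by 0.85 and 1.35, or by -0.05 and 0.48 with that correction.

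Of 22 factors of nonsense-mediated decay, 10 were higher and 8 lower at 24 h in T3 cultures, and 11 higher and 7 lower in vehicle cultures. Over all genes 31.9% to 35.2% were called in each direction with time. With GC content and length corrected 6 were higher and 8 lower in T3 cultures, and 5 higher and 7 lower in vehicle cultures. UPF3B averaged 95.2 ± 3.82 CPM with T3 at 24 h, against 17.5 ± 0.229 CPM at 6 h (SD, n = 2 each), and the kinase SMG1 521 ± 38.2 CPM against 191 ± 9.83 CPM. With T3 at 6 h PNRC2 was higher and SMG6 lower, where 3.78% of all genes were called higher and 3.86% lower. Neither factor was called with GC content and length corrected. The same 22 factors had 2 higher and 2 lower calls in 24 h libraries labelled T3. These are small numbers near the 5.58% of all genes called higher and 7.76% called lower. Of 18 genes that act on translation of TOP RNAs, 6 were higher and 8 lower at 24 h in T3 cultures, and 7 higher and 8 lower in vehicle cultures, where 31.9% to 35.2% of all genes were called in each direction. After the same correction 3 were higher and 9 lower in T3 cultures, and 3 higher and 5 lower in vehicle cultures. LARP4 changed by 1.60 and 1.45 (0.66 and 0.56 after it), while MLST8, a subunit of the mTOR complexes, changed by -2.11 and -2.41 (-0.75 and -1.31 after it) in T3 and vehicle cultures, each uncorrected value past the threshold of edgeR's quasi-likelihood test.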

How the data were processed

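The authors deposited 1 table of raw read counts by gene symbol for each library, with no normalisation. CASAVA 1.7, STAR 2.7, HTSeq, DESeq2 and build hg38 are named in the submitters' processing notes. Annotation release, strand setting and trimming: not given in the sources used here. Each library had 56832 gene rows and 5 summary rows, and the summary rows stayed out of sizes and tests. Depth in genes limits the low hosts most: 3 counts equal 0.346 to 1.22 CPM.

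Counts were analysed with edgeR 4.0.16 in R 4.3.3: TMM scaling, filterByExpr by group with a minimum count of 10, and the robust quasi-likelihood F test, two-sided, over all 8 libraries with 1 coefficient per group, leaving 4 residual degrees of freedom. Benjamini-Hochberg adjustment ran over 14611 genes, and calls are adjusted p-values under 0.05. The biological coefficient of variation was 13.1%. The fitting was tested on simulated counts. Positions, exon lengths, counted snoRNA rows inside hosts and neighbours within 5000 bases of a start came from GENCODE 29 on GRCh38, matched by symbol. Start windows and the numbers and classes of hosted snoRNAs came from RefSeq (GRCh38.p14). Alternatives were size factors by relative log expression, library totals, DESeq2 1.42.0, no filter, a replicate block, correction for GC content and length (lowess, span 0.3, over 12577 genes), only the 4 libraries compared, and each library left out in turn. Hosts called with treatment were named in full and the rest by values or ranges. From each other list up to 3 called genes with the smallest adjusted p and a mean of at least 1 CPM could be named in each comparison. The hosts and the lists were chosen with earlier results of these data known.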

Additional observations from a re-analysis of the deposited data

Results flagged for a closer look

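Results of 2 hosts were singled out because both 6 h T3 libraries moved one way from vehicle and both 24 h libraries labelled T3 the other way. SNHG3 had 226 and 252 CPM with T3 at 6 h, against 209 and 217 CPM with vehicle, and 125 and 125 CPM in 24 h libraries labelled T3, against 149 and 141 CPM in those labelled vehicle. The response at 24 h minus that at 6 h was -0.38 on the log2 scale (adjusted p = 0.263 by edgeR's quasi-likelihood test), so it failed the correction. For SNHG6 the same difference was -0.65 (adjusted p = 0.0817 by edgeR's quasi-likelihood test), from 215 and 210 CPM with T3 against 150 and 161 CPM with vehicle at 6 h, and 36.0 and 33.1 CPM in 24 h libraries labelled T3 against 38.9 and 40.2 CPM in those labelled vehicle. That also failed the correction, though it passed without the filter on low counts and without the first 24 h vehicle library. Both reversals rest on the 24 h labels, which KLF9 and HR went against. The sign of the 24 h response was also turned, a reading added after the data were seen. SNHG3 would then have 0.22 at 24 h beside 0.17 at 6 h, and SNHG6 0.20 beside 0.45. Since these 2 hosts were picked for opposite signs, turning the 24 h sign had to give the same direction and says nothing about the labels. Hosts with the same sign at both times as labelled would then differ in sign, such as SNHG7 (-0.50 at 6 h and 0.54 at 24 h).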

How the results depend on the processing

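The falls with time depended least on the processing. In T3 and in vehicle cultures the counts of hosts lower and higher stayed within 1.5 times under every alternative that kept both libraries of each group compared. Similar counts did not always mean the same hosts. With GC content and length corrected SNHG11 took the place of SNHG14 among the hosts higher in vehicle cultures, and SNHG1 was called lower there. With 1 library left out, 1 to 3 hosts were higher in vehicle cultures. SNHG14 reversed with GC content and length corrected, to -0.18 in T3 and -0.29 in vehicle cultures. With library totals the median of all genes was -0.11 with T3 at 6 h, and 0.24 and 0.15 with time in T3 and vehicle cultures.

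The treatment calls depended on the setting, and the causes were not tested. With T3 at 6 h the 1 host higher became 0 under library totals, DESeq2, the replicate block and the GC content and length correction, and the 2 lower became 1 under DESeq2 and under that correction. Leaving out 1 library gave 0 to 1 higher and 0 to 2 lower. At 24 h, as labelled, the 1 higher became 0 under the GC content and length correction and with only the 4 libraries compared. The 1 lower became 0 under these and under relative log expression, library totals and DESeq2. Leaving out 1 library gave 0 to 2 higher and 0 to 1 lower. The difference between responses had 0 calls in each direction, 1 lower without the filter on low counts, and 0 to 1 each way with 1 library left out.

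Replicate numbers did not pair the libraries: the correlations of same-numbered deviations were -0.00362 at 6 h and -0.0437 at 24 h. With the replicate block the treatment counts were 0 higher and 2 lower at 6 h, and 1 and 1 at 24 h, and the 12 lower with time stayed at 12 in both kinds of culture. Depth limits SNHG9 most, with 4 and 6 reads per group at 24 h.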
